A study of Mus musculus with 16 samples.

Results

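The genes described here carry out or control the burning of fatty acids in the liver, and many are known targets of PPARα, the nuclear receptor encoded by Ppara. The list held 34 genes, and 33 of them had at least 1 probe set annotated to that gene alone, out of 18193 genes with such a probe set on the array. Each gene was represented by its probe set with the highest mean over the 16 arrays. The missing gene was Cyp4a10, whose probe set is shared with Cyp4a31. All 33 measured genes passed the filter on dim probe sets that left 13575 genes for testing. By place in the cell, 15 measured genes were mitochondrial, 9 peroxisomal and 2 microsomal, and 7 had another or a mixed place.

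The arrays measured RNA from mouse liver at days 0, 2, 7 and 14 after partial hepatectomy, the surgical removal of part of the liver that sets off regrowth. There were 4 arms, with 1 array for each arm and day. MET_KO_canertinib mice lacked exon 16 of Met, deleted with a tamoxifen-inducible system, and ate a diet with canertinib, which was given to inhibit EGFR and aimed at 80 mg/kg. MET_FLOX_canertinib mice had the same diet with no Met deletion named. MET_KO mice had the deletion with no canertinib named, and MET_FLOX mice had neither. All arms shared the strain label 129SV/C57BL/6 and the genotype label Metff/ff:ERCre+/+. The inhibition is described as systemic and not as limited to hepatocytes. The labels do not say whether an array held RNA of 1 animal or of a pool. No arm had a second array on any day, so days served as blocks for arms, and a p-value here weighs only the spread among arrays.

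Fatty acids enter mitochondria as carnitine esters and are shortened there by repeated rounds of dehydrogenation, hydration, a further dehydrogenation and thiolysis. Very long chains are first shortened in peroxisomes, and microsomal Cyp4a enzymes oxidise the far end of the chain. PPARα, when bound by fatty acids, pairs with RXR on response elements and raises the transcription of genes in all of these routes, most of all during fasting.

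The signals were MAS5 intensities on arbitrary units, so a level can be compared between arrays for 1 gene but not between genes. Array medians fell into a lower set of 6 arrays, MET_KO and MET_FLOX at days 0, 2 and 7, with medians of 156.4 to 188.7, and a higher set of 10 arrays with medians of 244.0 to 265.1. At days 0, 2 and 7 every canertinib array was therefore in one set and every array without canertinib in the other. The ratio of 3′ to 5′ Gapdh signal, a measure of RNA integrity, was 0.950 to 2.24 on canertinib arrays and 0.765 to 0.869 on arrays without canertinib. Hepatocyte markers summed to 261181 to 463614 on canertinib arrays and to 126608 to 330678 on the others, and at least 6 of 7 measured markers were above the array median everywhere. On the MET_KO_canertinib day 14 array neutrophil markers summed to 42072, against 1388 to 10907 on the other 15 arrays. On the MET_FLOX_canertinib day 7 array skeletal muscle and heart markers summed to 44886, with 5 of 6 above the array median, against 354 to 1137.0 on the other 15 arrays. The part of these differences in the results below was not tested. Some of the results below are also given without those arrays, but not all of them. The first Met probe set read 98.0 to 499.4 in MET_KO_canertinib, 97.8 to 493.7 in MET_FLOX_canertinib, 440.5 to 624.1 in MET_KO and 507.7 to 700.3 in MET_FLOX livers, so its ranges overlapped between MET_KO and MET_FLOX. The second read 982.2 to 1421.5 in MET_KO_canertinib, 1117.5 to 2014.2 in MET_FLOX_canertinib, 1011.2 to 2065.9 in MET_KO and 1040.7 to 1962.3 in MET_FLOX livers, and these ranges overlapped too. No source used here places either probe set relative to exon 16, so the genotype labels cannot be checked with them.

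PPARα binds a pair of half-sites set 1 base apart, AGGTCANAGGTCA, and this element was searched on both strands in RefSeq promoter windows of build GRCm38.p6. A window ran from 250 bases before to 50 bases after the transcript start. Of 27 members with a window, 0 held a match with at most 1 mismatch, against 0.644% of 27025 genes. A match with at most 2 mismatches stood in 2 of 27 members, or 7.41%, against 4.40% of all genes. With 4 mismatches allowed the shares were 81.5% of members and 81.9% of all genes. The single half-site AGGTCA stood in 5 of 27 members, or 18.5%, against 18.1% of all genes. Windows of 4 members are shown, with the closest match in capitals. In the Acaa1b window 2 places are equally close, and the capitals mark 1 of them. Acot4 (chr12:84038129-84038428, plus strand) and Slc25a20 (chr9:108661886-108662185, plus strand) hold the matches with 2 mismatches. Acaa1b (chr9:119157044-119157343, minus strand) and Crot (chr5:8997097-8997396, minus strand) are members that results below turn on, and their closest matches have 4 mismatches. A match of letters does not show that a factor binds, and the lack of one says only that these letters are not in this window.
Acot4: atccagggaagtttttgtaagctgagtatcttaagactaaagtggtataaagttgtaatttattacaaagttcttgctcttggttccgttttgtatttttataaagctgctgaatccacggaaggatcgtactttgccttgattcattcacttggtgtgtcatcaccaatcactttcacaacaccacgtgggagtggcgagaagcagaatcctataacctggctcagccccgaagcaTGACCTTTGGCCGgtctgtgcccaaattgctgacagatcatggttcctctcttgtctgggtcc
Slc25a20: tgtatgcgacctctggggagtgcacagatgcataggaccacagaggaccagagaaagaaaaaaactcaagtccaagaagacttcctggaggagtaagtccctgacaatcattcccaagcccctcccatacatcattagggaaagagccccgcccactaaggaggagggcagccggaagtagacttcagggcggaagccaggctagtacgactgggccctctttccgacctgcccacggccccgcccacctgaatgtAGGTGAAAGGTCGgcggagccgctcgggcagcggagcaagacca
Acaa1b: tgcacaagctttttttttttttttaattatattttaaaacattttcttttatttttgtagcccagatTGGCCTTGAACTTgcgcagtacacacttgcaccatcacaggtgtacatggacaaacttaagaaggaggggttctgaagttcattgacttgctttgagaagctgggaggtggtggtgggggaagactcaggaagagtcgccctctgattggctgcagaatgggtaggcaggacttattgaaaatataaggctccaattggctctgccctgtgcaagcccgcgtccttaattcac
Crot: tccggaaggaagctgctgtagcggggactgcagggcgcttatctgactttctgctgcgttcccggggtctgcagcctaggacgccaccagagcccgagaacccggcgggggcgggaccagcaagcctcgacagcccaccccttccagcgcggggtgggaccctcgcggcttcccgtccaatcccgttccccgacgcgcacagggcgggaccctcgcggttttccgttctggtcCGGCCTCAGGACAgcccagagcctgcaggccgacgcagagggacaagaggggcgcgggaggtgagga

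The members differed in how far their signal ranged over the arrays. Cpt1a, which makes acylcarnitine at the outer mitochondrial membrane and sets the pace of mitochondrial oxidation, ranged 1.75-fold over the 16 arrays, between 6097 and 10675. Its other probe sets, dimmer but above the array median on all arrays, ranged 4.77- and 4.01-fold, so the narrow range holds for the probe set used. Acads, the short-chain acyl-CoA dehydrogenase, ranged 1.98-fold, and Crat, carnitine acetyltransferase, 1.99-fold. At the other end, the highest signal was 138 times the lowest for Acaa1b, a peroxisomal thiolase. The same ratio was 116 for Ehhadh, the peroxisomal bifunctional enzyme of the hydration and second dehydrogenation steps. It was 63.4 for Acot3, 37.1 for Cyp4a14 and 24.8 for Acot1. Acot3 and Acot1 are acyl-CoA thioesterases, and Acot3 was above the array median on only 9 of 16 arrays, so its ratio rests on dim signals. Ppara itself ranged 2.83-fold, between 1587 in the MET_KO day 2 liver and 4497 in the MET_FLOX_canertinib day 7 liver.

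**Figure D1:**
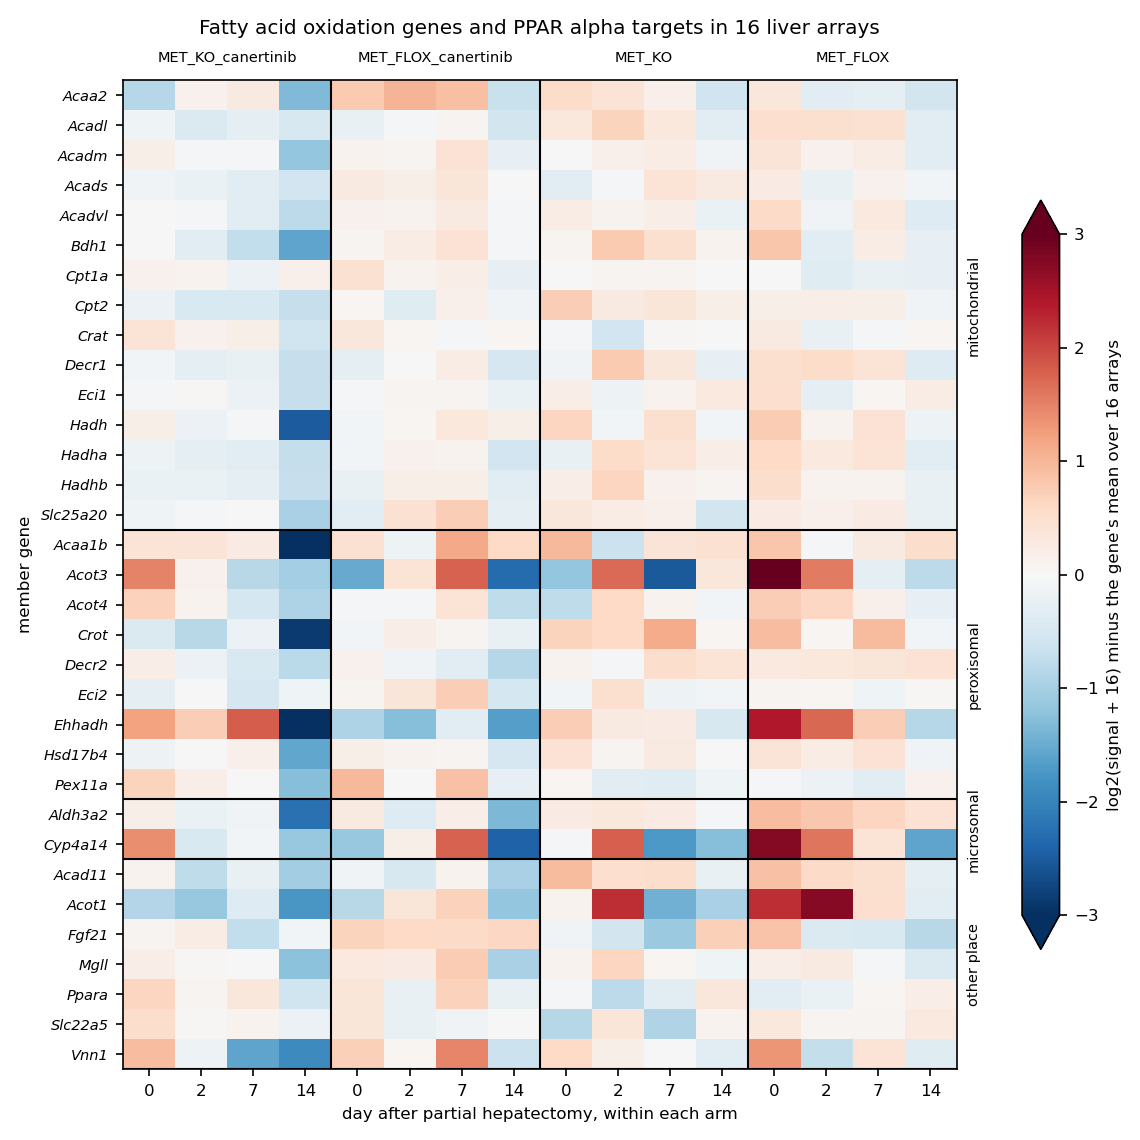
Heat map of the 33 measured members in the 16 arrays, as log2(signal + 16) minus the mean of each gene, in log2 units from -3 to 3. Rows are genes grouped by place in the cell and columns are arrays by arm and day. The MET_KO_canertinib day 14 column holds the lowest value of 24 genes.

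Most mitochondrial members had their highest signal in an array without canertinib. Hadh, the short-chain 3-hydroxyacyl-CoA dehydrogenase, read 20396, 16123, 17488 and 3184 at days 0, 2, 7 and 14 in MET_KO_canertinib livers and 17104, 18815, 22738 and 20464 in MET_FLOX_canertinib livers. It read 28370.5, 17084, 25400.1 and 17129.6 in MET_KO livers and 30625, 19461, 24355 and 16350.1 in MET_FLOX livers. One array, MET_KO_canertinib at day 14, stood apart from the other 15, which lay between 16123 and 30625. Hadha and Hadhb encode the subunits of the trifunctional protein for long chains. Hadha read 5686, 5157, 5062 and 3856 in MET_KO_canertinib livers over the 4 days, against 9558, 7744, 8370.0 and 4941 in MET_FLOX livers. The MET_KO_canertinib value was the lower on each of the 4 days. Cpt2, which releases acyl-CoA from acylcarnitine inside mitochondria, read 3548, 2927, 2895 and 2489 in MET_KO_canertinib livers and 4199, 3107, 4442 and 3727 in MET_FLOX_canertinib livers. It read 6691, 4806, 5151 and 4529 in MET_KO livers and 4550.1, 4584, 4540.4 and 3743 in MET_FLOX livers. With this probe set every MET_KO_canertinib value was thus below every MET_KO and MET_FLOX value. The other Cpt2 probe set, dimmer but above the array median on all arrays, did not part the arms. It read 497.5 to 679.0 in MET_KO_canertinib, 389.3 to 595.0 in MET_KO and 542.0 to 888.6 in MET_FLOX livers.

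Acaa2, the mitochondrial thiolase, had a pattern that differed between its 3 probe sets. The one used, with the highest mean, read 5875, 11638, 12774 and 4179.6 at days 0, 2, 7 and 14 in MET_KO_canertinib livers, against 18156, 21451, 19844 and 6607 in MET_FLOX_canertinib livers. Its levels were 15472, 13993, 11778 and 6995 in MET_KO livers, against 13451, 8493, 8717 and 7209.9 in MET_FLOX livers. With this probe set the day 14 value was the lowest of its arm in each of the 4 arms. A second one read 4662, 2703, 3830.4 and 2064 in MET_KO_canertinib livers, 4244, 4775, 3514.5 and 2015 in MET_FLOX_canertinib livers, and between 6845 and 15791 in the arms without canertinib. There both canertinib arms lay below the others, and MET_FLOX_canertinib was not the highest arm. The other one read 9652, 11423, 13047 and 11588 in MET_FLOX livers, where day 14 was not the lowest day, so the Acaa2 differences depend on the probe set.

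Bdh1, which interconverts the ketone bodies acetoacetate and 3-hydroxybutyrate, read 4361, 3458, 2569.8 and 1429 in MET_KO_canertinib livers over the 4 days, against 4598, 7446, 6023 and 4639 in MET_KO livers. The canertinib array was the lower on each day. Acadm, the medium-chain acyl-CoA dehydrogenase, lay between 9814 and 16366 on 15 arrays and at 5417 on the MET_KO_canertinib day 14 array. Acadvl, the very-long-chain dehydrogenase, lay between 6157 and 11899 on the same 15 arrays and at 4679.8 on that one. Eci1, an isomerase that moves double bonds so that unsaturated chains can be oxidised, lay between 3729 and 6351 and at 2770.5. These 3 members were thus lowest on the same array. Slc25a20, the carrier of acylcarnitines across the inner membrane, ranged between 2055 and 6720 and was lowest there too.

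Peroxisomal members held the widest differences. Acaa1b read 21202, 20828, 19018 and 257 at days 0, 2, 7 and 14 in MET_KO_canertinib livers and 22096, 14333, 35421 and 24386 in MET_FLOX_canertinib livers. It read 31583, 10174, 21025 and 22065 in MET_KO livers and 28350.1, 15564, 19258 and 23038 in MET_FLOX livers. The other 15 arrays thus lay between 10174 and 35421, and this 1 array was just below its array median of 265.1. Ehhadh read 11456, 8179.7, 17403 and 225 in MET_KO_canertinib livers and 2598, 2006, 3858 and 1549 in MET_FLOX_canertinib livers. It read 8261, 5971, 5831 and 3547 in MET_KO livers and 26026, 16262, 8157 and 2702 in MET_FLOX livers. MET_FLOX_canertinib livers were below MET_FLOX livers on each day, and in MET_FLOX livers the signal was lower on each later day. Crot, carnitine octanoyltransferase, which prepares shortened chains for export from peroxisomes, read 7118, 5472.5, 8554 and 1318 in MET_KO_canertinib livers and 9136, 11167, 10328 and 8278 in MET_FLOX_canertinib livers. It read 15446, 14752, 21047 and 10137 in MET_KO livers and 18456, 10068, 18844 and 9141 in MET_FLOX livers. No MET_KO_canertinib value of Crot reached the lowest value of the arms without canertinib.

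Hsd17b4, Pex11a and Decr2 ranged less over the arrays than Crot. Hsd17b4, the second bifunctional enzyme of peroxisomes, lay between 5222 and 10014 on 15 arrays and at 2534 on the MET_KO_canertinib day 14 array. Pex11a, which helps peroxisomes divide, read 4479, 3224, 2863 and 1154 in MET_KO_canertinib livers and 5575, 2856, 5215 and 2369 in MET_FLOX_canertinib livers. It stayed between 2175 and 3065 in all arrays of MET_KO and MET_FLOX livers. With the probe set used the 2 canertinib arms therefore spanned a wider range than the arms without canertinib. The other Pex11a probe set ran from 1050.6 to 3596.2 in MET_KO and MET_FLOX livers and from 959.0 to 4026.5 in the canertinib arms. The narrow range without canertinib thus depends on the probe set. Decr2, which reduces double bonds at even positions, was at 1213 and 1173 in the MET_KO_canertinib and MET_FLOX_canertinib day 14 livers, against 2844 and 2871 in the MET_KO and MET_FLOX day 14 livers. The canertinib and other arrays of that day did not overlap. Eci2, the peroxisomal counterpart of Eci1, lay between 3250 and 7825, and Acot4, a thioesterase, between 217 and 722.

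Among microsomal members, Cyp4a14, an omega-hydroxylase of fatty acids that PPARα strongly induces in mouse liver, read 8265, 2289, 2966 and 1424 at days 0, 2, 7 and 14 in MET_KO_canertinib livers and 1418, 3542, 10708 and 574.5 in MET_FLOX_canertinib livers. It read 3007, 10927, 948 and 1298 in MET_KO livers and 21331, 9693, 4228 and 1051 in MET_FLOX livers. Its highest day differed between arms, being day 0 in MET_KO_canertinib and MET_FLOX, day 7 in MET_FLOX_canertinib and day 2 in MET_KO. The probe set shared by Cyp4a10 and Cyp4a31, which cannot be assigned to either, had its highest value of each arm on the same day as Cyp4a14. Aldh3a2, the fatty aldehyde dehydrogenase, read 4117, 3167, 3399 and 754.5 in MET_KO_canertinib livers and 4372, 2797.5, 4164 and 1427 in MET_FLOX_canertinib livers. It read 4341, 4552.5, 4297 and 3575 in MET_KO livers and 6979, 6397, 5731 and 4917 in MET_FLOX livers. On each day both canertinib arrays were below the MET_FLOX array, and at day 14 they were also far below the MET_KO array.

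**Figure D2:**
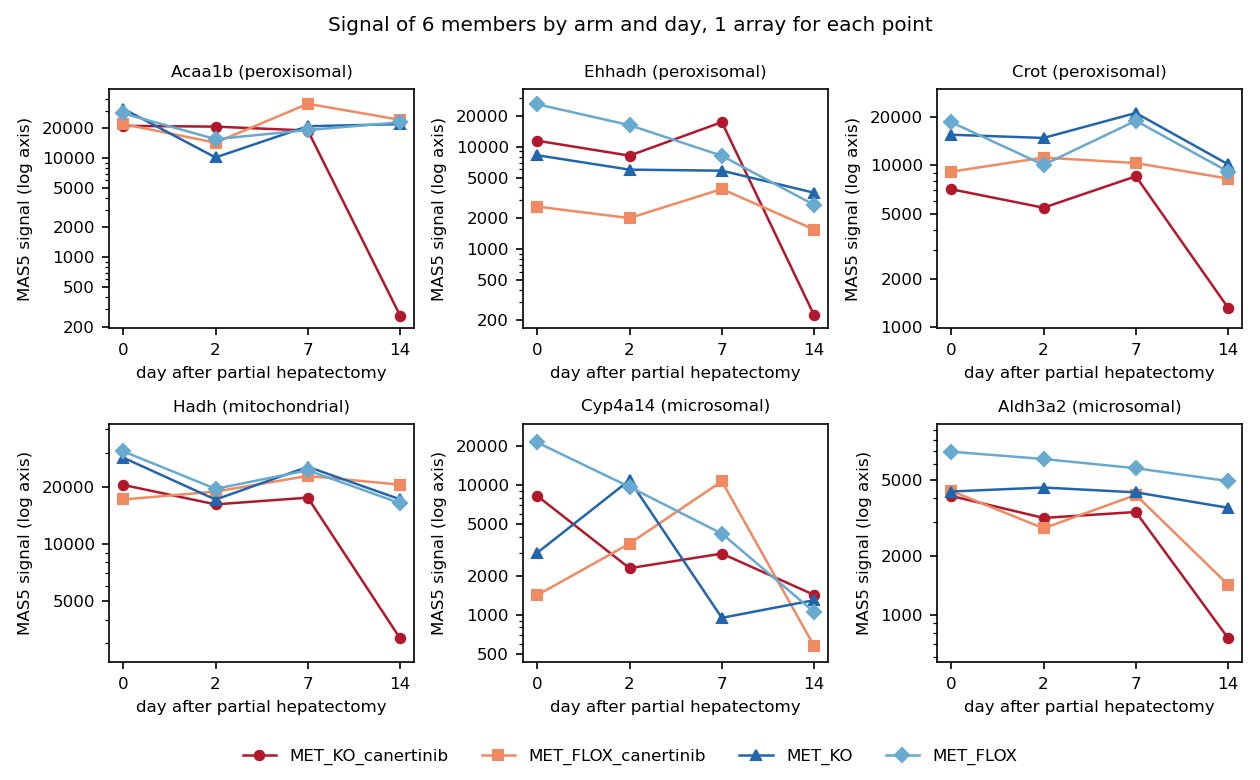
Signals of Acaa1b, Ehhadh, Crot, Hadh, Cyp4a14 and Aldh3a2 on a log axis at days 0, 2, 7 and 14 after partial hepatectomy, 1 line for each arm and 1 array for each point. Acaa1b in MET_KO_canertinib livers ends at 257, whereas the other arms lie at or above 22065 on that day.

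Among members with another place, Acad11, an acyl-CoA dehydrogenase active on longer chains, read 6933, 3782, 5534 and 3108 at days 0, 2, 7 and 14 in MET_KO_canertinib livers and 5943, 4626, 6976 and 3267 in MET_FLOX_canertinib livers. It read 12378, 9116, 9256 and 5522 in MET_KO livers and 11916, 9526, 9053 and 5253 in MET_FLOX livers. On every day both canertinib arrays were below both arrays without canertinib, and in every arm day 14 was lowest. Acot1, a cytosolic thioesterase, read 278, 229, 398 and 144 in MET_KO_canertinib livers, against 2499.8, 3573, 746 and 417 in MET_FLOX livers. Vnn1, a pantetheinase, read 3271, 1548, 562.5 and 444 in MET_KO_canertinib livers, against 4322, 1035, 2276 and 1336 in MET_FLOX livers. Acot1 was lower in MET_KO_canertinib on all 4 days, and Vnn1 on 3. Fgf21, the hormone that PPARα induces on fasting, was dim, between 139.8 and 596 on all arrays, and above the array median on 13 of 16. Mgll, which hydrolyses monoacylglycerol, was lowest on day 14 in every arm, at 1382 in MET_KO_canertinib, 1647 in MET_FLOX_canertinib, 2978 in MET_KO and 2405 in MET_FLOX livers. Slc22a5, the carnitine importer of the cell membrane, lay between 509.9 and 1387.

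The MET_KO_canertinib day 14 array held the lowest signal of all 16 arrays for 24 of 33 members. Over all genes tested the same array was lowest for 11.7%. Of the mitochondrial members 13 of 15 were lowest there, of the peroxisomal 6 of 9, of the microsomal 1 of 2, and of those with another place 4 of 7. It held the highest signal of no member, against 1995 genes in all, or 14.7%. More than 2-fold below each of the other day 14 arrays were 8 of 33 members, against 4.45% of all genes. These were Acaa1b (80.8-fold below the lowest other day 14 array), Ehhadh (6.50-fold), Crot (6.22-fold), Hadh (5.11-fold), Bdh1 (2.52-fold), Vnn1 (2.42-fold), Hsd17b4 (2.05-fold) and Pex11a (2.04-fold). These folds are on the signal + 16 scale. Acaa1b and Ehhadh lay below the array median there, so their folds rest on dim signals and their size is uncertain. Just short of that limit were Aldh3a2 at 1.87-fold and Acadm at 1.81-fold. Against the lowest earlier day of the same arm, the log2 difference was -6.12 for Acaa1b, -5.09 for Ehhadh, -2.33 for Hadh and -2.04 for Crot. Cpt1a went the other way, at 8659 there, against 6529.5 to 7699 on the other day 14 arrays. With the probe set used Ppara was the lowest of day 14 at 1813 but not of all arrays. A further Ppara probe set had its lowest of all arrays there, at 1284.4, while another had it in the MET_FLOX day 0 liver. This is a single array, so the differences have no replicate check and no test.

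The median member was lower there than the mean of the other 3 day 14 arrays by 0.67 on the log2 scale. The median was -1.19 for peroxisomal, -0.62 for mitochondrial and -0.66 for microsomal members, against 0.04 for all genes tested. With arrays centred on their medians 27 members were lowest there, against 17.8% of all genes, and with quantile normalization 20, against 13.5%. The number more than 2-fold below was 8 under both. A second Hadh probe set read 2604.8 there, against 7509, 10203 and 9879 in MET_FLOX_canertinib, MET_KO and MET_FLOX livers of that day. The 2 probe sets shared by Acaa1b and its neighbour Acaa1a read 1407.0 and 4110.5, against 6415 to 9610 and 20496 to 21153 on the other day 14 arrays. For Hadh and the shared sets the low reading was therefore present with other probe sets as well. The other Bdh1, Hsd17b4 and Pex11a probe sets read 397.6, 1643.1 and 959.0 there. The lowest other day 14 arrays read 800.3, 2350.9 and 1093.1, a smaller gap than with the probe sets used. The other Crot and Vnn1 probe sets were dim, at 261.4 and 30.9, against 315.3 and 82.5 on the lowest other day 14 arrays. Of 25 further member probe sets above the array median on at least 4 arrays, 10 were lowest there.

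**Figure D3:**
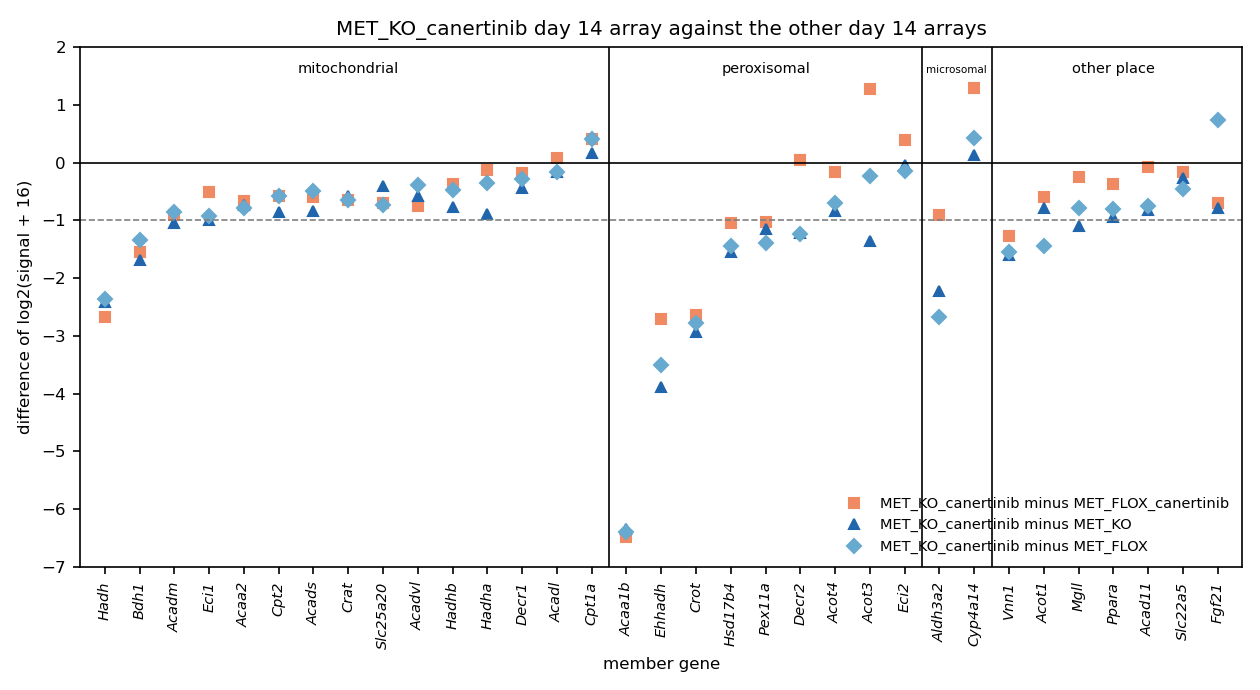
Log2 difference of the MET_KO_canertinib day 14 array from each of the other 3 day 14 arrays, with members along the axis grouped by place in the cell. The dashed line at -1 marks a 2-fold difference, and all 3 points of 8 members lie beyond it.

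Genes of the same routes that are no members behaved unevenly on that array. Of 31 other measured genes of fatty acid oxidation and ketogenesis, 16 were lowest there and 8 were more than 2-fold below each other day 14 array. Of 21 other PPARα targets the numbers were 7 and 4. Fabp1, which carries fatty acids in the hepatocyte cytosol, read 1368 there, against 49993, 55034 and 56642 in MET_FLOX_canertinib, MET_KO and MET_FLOX livers. Cyp4a12a, another omega-hydroxylase, read 678, against 5758, 16672 and 13825. In contrast Pdk4, a target of PPARα that restrains glucose oxidation, read 766, against 223.7 to 237.0, and Plin2, the lipid droplet coat protein, read 14612, against 14301, 14120.1 and 9374. Of 14 mitochondrial content genes 7 were lowest there and 0 were more than 2-fold below. Of 12 peroxisome biogenesis genes the numbers were 8 and 1, and the 1 gene was catalase (Cat), named after its values were seen, at 5187, against 20582 to 23324.

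On the same array neutrophil markers were above the other day 14 arrays by a median of 3.07 on the log2 scale, and S100a8 read 22731. Their sum was 42072, against 3357 to 5313 on the other day 14 arrays. Hepatocyte markers were lower by a median of 0.22, and their sum was 310048, against 319627 to 463614. Kupffer cell markers summed to 24790, against 12835 to 31674, adipocyte markers to 2329, against 1240.0 to 1876, and pancreatic acinar markers to 1066, against 2058 to 2336. The part of these differences in the low member signals was not tested. In bulk tissue, fewer cells of a type and less RNA per cell cannot be told apart.

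Across all days, the acyl-CoA dehydrogenases Acad11 and Acadl, the carnitine acyltransferases Cpt2 and Crot and the dienoyl reductases Decr1 and Decr2 were lower in canertinib arms than in arms without canertinib. In the limma fit 11 of 33 members were called lower and 0 higher at an adjusted p under 0.05. Of all genes tested 10.6% were called lower and 24.0% higher. The median member difference was -0.39 on the log2 scale, with 26 of 33 lower, against a median of 0.14 over all genes. By place, 5 of 15 mitochondrial members were called lower, with a median of -0.24 over all 15. Of peroxisomal members 3 of 9 were called lower, with a median of -0.47 over all 9, of microsomal members 1 of 2, and of those with another place 2 of 7.

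Acad11 fell by 0.85 ± 0.11 (SE) on the log2 scale, with an adjusted p of 0.00164, and was lower on 4 of 4 days. Crot fell by 1.08 ± 0.22, or 2.11-fold, with an adjusted p of 0.00462, on 4 of 4 days. Cpt2 fell by 0.50 ± 0.10, with an adjusted p of 0.00455, and Aldh3a2 by 0.91 ± 0.21, with an adjusted p of 0.00688, both on 4 of 4 days. The Cpt2 values are those of the probe set used, and its other probe set did not part the arms. Among the enzymes of the mitochondrial chain, Acadl, the long-chain dehydrogenase, fell by 0.53 ± 0.12, Hadha by 0.47 ± 0.14, Decr1, the mitochondrial dienoyl reductase, by 0.46 ± 0.13, and Hadhb by 0.39 ± 0.12. Their adjusted p-values lay between 0.0062 and 0.0219, and each was lower on 4 of 4 days. Decr2 fell by 0.60 ± 0.16 and Hsd17b4 by 0.43 ± 0.15, with adjusted p-values of 0.0113 and 0.0401. Acot1 fell by 1.26 ± 0.40, with an adjusted p of 0.0267, on 3 of 4 days.

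Among the 22 members that were not called, Ppara differed by 0.27 (adjusted p = 0.284 by limma), Cpt1a by 0.18 (adjusted p = 0.24) and Pex11a by 0.31 (adjusted p = 0.259). Ehhadh, at -1.20 ± 0.49, had an adjusted p of 0.0695, and Cyp4a14, at -0.49, one of 0.49. Acaa1b, at -0.69 ± 0.66, had an adjusted p of 0.423, and it was lower with canertinib on 2 of 4 days. These were days 0 and 14, and the day 14 difference includes the MET_KO_canertinib array at 257.3. On days 2 and 7 Acaa1b was higher with canertinib.

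**Figure D4:**
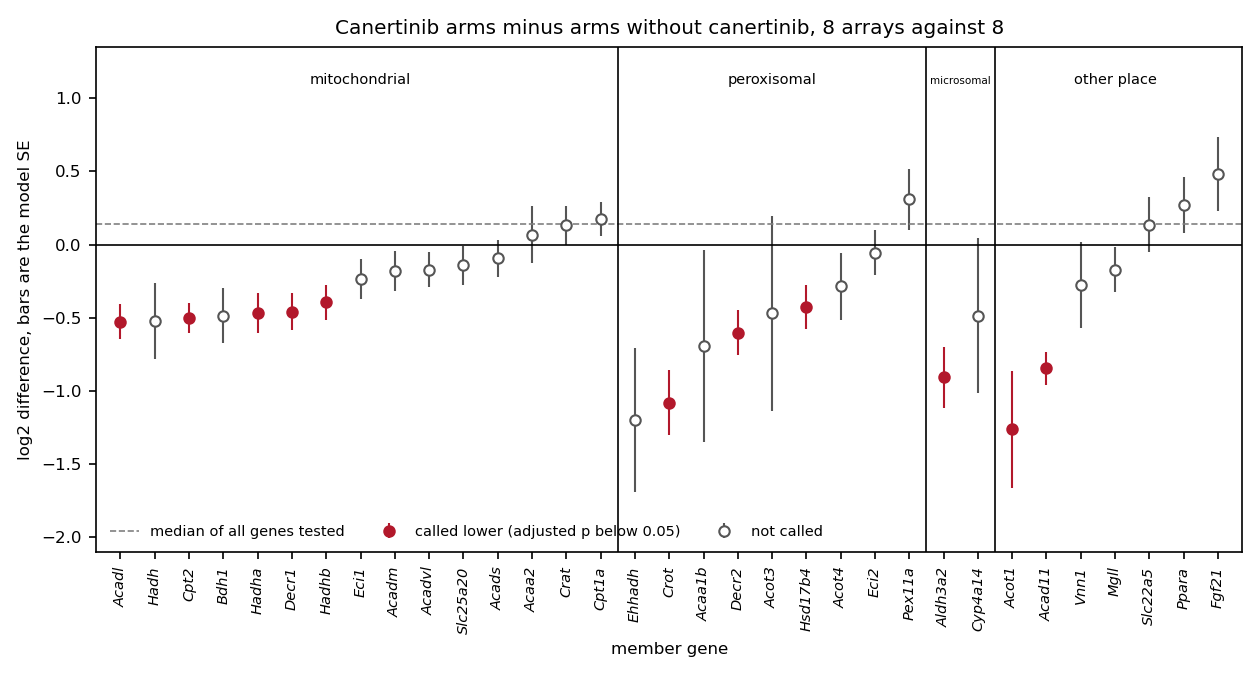
Difference between canertinib arms and arms without canertinib for each member, as log2 with its standard error, grouped by place in the cell. Filled points are the 11 called members, all below 0, and the dashed line marks the median of all genes tested at 0.14.

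At days 0, 2 and 7 canertinib and the array set cannot be told apart, and the count of calls moved with the scaling of the arrays. With arrays centred on their medians 22 members were called lower and 0 higher, while the median of all genes was -0.25 and 31.6% of all genes were called lower. With quantile normalization 3 members (Acad11, Crot and Acot1) were called lower and 1, Cpt1a, higher. Of all called genes 69.3% were higher under the deposited scaling, 17.7% after centring and 57.7% after quantile normalization. A term for the array set left the comparison to day 14, and 1 member, Aldh3a2, was then called, at -1.997 with an adjusted p of 0.00737. Without the MET_KO_canertinib day 14 array 11 members were called lower and 1, Pex11a, higher, and without the MET_FLOX_canertinib day 7 array 10 were called lower. Hsd17b4 was no longer called without any 1 of 11 arrays, namely MET_KO_canertinib day 0, MET_FLOX_canertinib days 0, 2 and 7, MET_KO days 0, 7 and 14 and each MET_FLOX array (adjusted p 0.0507 to 0.0786). Acot1 was no longer called without any 1 of 6 arrays, namely day 2 of each arm and day 0 of MET_FLOX_canertinib and of MET_FLOX (0.06 to 0.0647). Hadhb was no longer called without MET_FLOX_canertinib day 0 (0.0521) or MET_KO day 2 (0.0507). The mean over all probe sets of a gene gave 0.02 for Crot in place of -1.08, the other Crot probe set being dim, at 21.7 to 519.5.

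The same comparison in genes of neighbouring routes gave 13 called lower and 3 called higher of 31 other fatty acid oxidation and ketogenesis genes. The calls with the smallest p were Etfdh, which passes electrons from the dehydrogenases to the respiratory chain, at -0.62 ± 0.10 (adjusted p = 0.00203 by limma), Slc25a17, a peroxisomal carrier, at -1.94 ± 0.32 (0.00235), and Acbd5, a peroxisomal acyl-CoA binding protein, at -0.77 ± 0.13 (0.00275). Of 14 mitochondrial content genes 10 were called lower and 0 higher, among them Ndufs1 at -0.73, Cycs at -0.77 and Cs at -0.68. Lower signals were thus also found in mitochondrial genes outside the lists of fatty acid oxidation genes. Of 21 other PPARα targets 1 was called lower, Retsat at -0.96, and 0 higher, while by direction alone 9 were lower and 12 higher. Of 12 peroxisome biogenesis genes 2 were called lower, Pex3 and Pex5, while by direction alone 11 were lower. Of 16 partners and coregulators 1 was called higher, Ppargc1a at 0.52, and 1 lower, Nr1h4 at -0.47. In the same fit 3 of 7 hepatocyte markers and 3 of 4 neutrophil markers were called higher. The medians of these lists were 0.54 and 1.09 on the log2 scale, and their part in the member differences was not tested.

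Each drug arm was next set against the arm of the same or the other genotype, and these comparisons share arrays. MET_KO_canertinib against MET_FLOX livers had 4 members called lower and 0 higher, where 1.15% of all genes were called lower and 1.76% higher. Acot1 fell by 2.32 ± 0.56 on the log2 scale (adjusted p = 0.0458 by limma), Crot by 1.54 ± 0.32 (0.0339), Aldh3a2 by 1.30 ± 0.29 (0.0406) and Acad11 by 0.89 ± 0.16 (0.0298), each on 4 of 4 days. The median member difference was -0.56, and -0.39, -0.66 and -1.09 for mitochondrial, peroxisomal and microsomal members. By single day the peroxisomal median was -0.42, -0.48, -0.36 and -1.40 at days 0, 2, 7 and 14. Without MET_KO_canertinib day 0 there was 1 call, and without MET_KO_canertinib day 2 or 7 or MET_FLOX day 0, 2 or 7 there were 0. Without MET_FLOX_canertinib day 2 there were 2. With each of the 16 arrays left out in turn, the Acot1 and Aldh3a2 calls were each kept 7 times, Crot 10 and Acad11 11. With quantile normalization or no day block there were 0 calls, with centred arrays 18, and with a term for the array set 1, Aldh3a2.

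MET_KO_canertinib against MET_KO livers had 6 members called lower and 0 higher, where 2.41% of all genes were called lower and 5.93% higher. Crot fell by 1.69 ± 0.32 (adjusted p = 0.0186 by limma), Bdh1 by 1.02 ± 0.27 (0.0387), Acad11 by 0.92 ± 0.16 (0.0163) and Cpt2 by 0.83 ± 0.15 (0.0163). Hadhb fell by 0.62 ± 0.17 (0.0417) and Acadl by 0.59 ± 0.17 (0.0457), and all 6 were lower on 4 of 4 days. The other Cpt2 probe set went the other way on each day. It read 679.0, 497.5, 542.9 and 601.4 in MET_KO_canertinib livers, against 581.5, 389.3, 516.3 and 595.0 in MET_KO livers. In this comparison 4 of the 6 were mitochondrial, with a median mitochondrial difference of -0.51. Without MET_KO_canertinib day 2 or MET_KO day 0, 2 or 7 there were 0 calls, and without MET_KO_canertinib day 7 or MET_FLOX day 7 there were 3. With each of the 16 arrays left out in turn, the Acadl call was kept 4 times, Hadhb 7 and Bdh1 9. The calls of Crot, Acad11 and Cpt2 were each kept 12 times. With quantile normalization there was 1 call, with centred arrays 21, with no day block 0, and with a term for the array set 1, Aldh3a2.

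MET_FLOX_canertinib against MET_FLOX livers had 1 member called lower and 0 higher, where 2.70% of all genes were called lower and 4.09% higher. This was Acad11, which fell by 0.77 ± 0.16 (adjusted p = 0.0271 by limma) on 4 of 4 days. Aldh3a2, at -1.02 ± 0.29, had an adjusted p of 0.0506, and Ehhadh, at -2.05 ± 0.69, one of 0.0769. The mitochondrial median was -0.01 here, the peroxisomal -0.43 and the microsomal -1.12. Without MET_FLOX_canertinib or MET_FLOX day 0, 2 or 7 there were 0 calls. There were 2 without MET_FLOX_canertinib or MET_KO day 14, and 3 without MET_KO_canertinib day 14. With quantile normalization or no day block there were 0 calls, with centred arrays 8, and with a term for the array set 1, Aldh3a2.

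The Met deletion made no called difference to the members. MET_KO against MET_FLOX livers had 0 members called by limma, as for all genes (0.00%). At an unadjusted p under 0.05 there were 349 genes and 1 member, Acot1 at -1.31 ± 0.56. The median member difference was -0.04. MET_KO_canertinib against MET_FLOX_canertinib livers also had 0 members called, with 0.00% of all genes, and 609 genes and 8 members at an unadjusted p under 0.05. All 15 mitochondrial members were lower in MET_KO_canertinib there, with a median of -0.36, or -0.28 without the MET_KO_canertinib day 14 array. Among them Acaa2 was at -0.95 ± 0.27 and Bdh1 at -0.83 ± 0.27, both with an adjusted p of 0.902 by limma. The test of whether the Met difference depended on canertinib called 0 members, against 0.0147% of all genes, with 599 genes and 5 members at an unadjusted p under 0.05. Its value was -1.28 for Acaa2 and -0.65 for Cpt2. The Acaa2 and Cpt2 values are those of the probe sets used, and their other probe sets had other patterns.

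Over the days, 24 members had their lowest signal on the MET_KO_canertinib day 14 array and 4 on the MET_FLOX_canertinib day 14 array. The MET_KO and MET_FLOX day 14 arrays held the lowest signal of 0 members. In MET_KO and MET_FLOX livers day 0 lay in the lower array set and day 14 in the higher one, so day and array set cannot be told apart there. Day 14 against day 0 gave 1 called member, Acad11, which fell by 1.09 ± 0.16 on the log2 scale (adjusted p = 0.0357 by limma) and was lower in 4 of 4 arms, where 0.0663% of all genes were called lower. All 33 members were lower at day 14 in this fit, with a median of -0.63, against 0.11 for all genes. The median was -0.46 for mitochondrial, -0.80 for peroxisomal and -1.77 for microsomal members, and -0.88 for those with another place. Without the MET_KO_canertinib day 14 array these medians were -0.44, -0.47 and -1.70 for the first 3 groups. At an unadjusted p under 0.05 there were 19 members, among them Ehhadh at -2.70 ± 0.69, Vnn1 at -1.70 ± 0.42 and Aldh3a2 at -1.20 ± 0.29, with adjusted p-values of 0.134, 0.124 and 0.122. Among other PPARα targets Retsat fell by 2.12 ± 0.30 (adjusted p = 0.033). In the same fit 4 of 4 neutrophil markers were higher, with a median of 1.91, 13 of 14 mitochondrial content genes were lower, with a median of -0.42, and 12 of 12 peroxisome biogenesis genes were lower, with a median of -0.30. Of these lists 0 genes were called, and their part in the member values was not tested. The Acad11 call was lost without the day 0 array of any arm, MET_FLOX_canertinib day 2, or any other MET_KO or MET_FLOX array, with adjusted p-values of 0.0509 to 0.1335. With arrays centred on their medians 6 members were called lower, with quantile normalization 0, and with a term for the array set 3, namely Aldh3a2, Pex11a and Mgll.

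Arms differed in how far members were below their own day 0 at day 14. Both canertinib arms were in the higher array set on both days, whereas MET_KO and MET_FLOX livers moved from the lower to the higher set. Differences here between arms with and without canertinib therefore cannot be told apart from the array set. In MET_KO_canertinib livers 17 of 33 members were lower by more than 2-fold, including 8 of 9 peroxisomal members, against 9.44% of all genes. The number was 6 in MET_FLOX_canertinib, where 6.05% of all genes were so, 5 in MET_KO, with 7.13%, and 9 in MET_FLOX livers, with 6.04%. The peroxisomal median was -1.94 in MET_KO_canertinib, -0.72 in MET_FLOX_canertinib, -0.19 in MET_KO and -0.49 in MET_FLOX livers. For mitochondrial members the median was -0.61 in MET_KO_canertinib, -0.21 in MET_FLOX_canertinib, -0.13 in MET_KO and -0.74 in MET_FLOX livers. The medians of all genes lay between 0.03 and 0.20 in the 4 arms. The MET_FLOX day 0 array held the highest signal of all arrays for 11 members, against 5.52% of all genes, so part of the difference within that arm rests on 1 array.

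**Figure D5:**
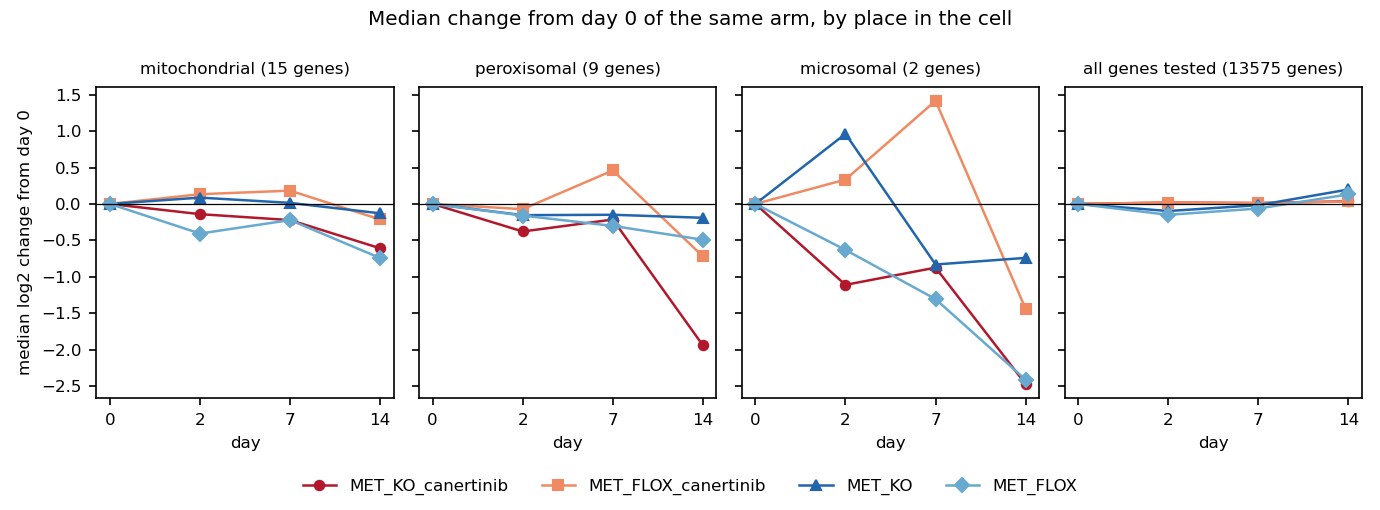
Median log2 change from day 0 of each arm at days 2, 7 and 14 for 15 mitochondrial, 9 peroxisomal and 2 microsomal members and all 13575 genes tested, 1 line for each arm. The peroxisomal line of MET_KO_canertinib ends at -1.94, the lowest of the 4 arms.

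Days 2 and 7 gave no called member. Day 2 against day 0 had 0 members called by limma, where 0.413% of all genes were called. At an unadjusted p under 0.05 there were 1428 genes and 2 members, Acad11 at -0.50 and Vnn1 at -1.05. Day 7 against day 0 had 0, where 0.00737% of all genes were called, with 664 genes and 1 member, Fgf21 at -0.80, at an unadjusted p under 0.05. The MET_FLOX_canertinib arm was the one with higher values at day 7, with medians of 0.18 for mitochondrial, 0.46 for peroxisomal and 1.42 for microsomal members. The microsomal median is of 2 members that went opposite ways, Cyp4a14 with 1418 at day 0 and 10708 at day 7, and Aldh3a2 with 4372 at day 0 and 4164 at day 7. The MET_FLOX_canertinib day 7 array held the highest signal of all arrays for 7 members, against 7.31% of all genes. It is also the array with the muscle and heart markers, and its Gapdh ratio was 1.52. Their part in these values was not tested.

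Day 14 is the only day on which arrays with and without canertinib lie in the same set of array medians. With a term for the set, limma called 1 member lower, where 0.0810% of all genes were called lower. Aldh3a2 fell by 1.997 ± 0.25 on the log2 scale (adjusted p = 0.00737), at 754.5 and 1427 in the canertinib livers against 3575 and 4917 in the others. The Gapdh ratio of the same livers was 1.13 and 2.24 with canertinib, against 0.810 and 0.811, and the Actb ratio 2.02 and 3.39, against 1.36 and 1.63. Neutrophil markers were higher with canertinib in 4 of 4, with a median of 1.80, and the part of these differences was not tested. Without the MET_KO day 14 array the adjusted p was 0.106, and without the MET_FLOX day 14 array 0.0679. Without the MET_FLOX_canertinib day 14 array 7 members were called, namely Acaa1b, Ehhadh, Crot, Hadh, Aldh3a2, Hsd17b4 and Decr2, a comparison in which canertinib is represented by the MET_KO_canertinib day 14 array alone. Without MET_KO day 7 or with quantile normalization 2 were called. The next member was Decr2, at -1.25 ± 0.24 with an adjusted p of 0.0665. The median was -0.68 for all members, -0.43 for mitochondrial, -1.25 for peroxisomal and -1.18 for microsomal members. Without the MET_KO_canertinib day 14 array the peroxisomal median was -0.52, and Aldh3a2 was at -1.58 with an adjusted p of 0.0411.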

How the data were processed

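Mouse liver RNA of 4 arms at 4 days, for 1 array each and 16 in all, was labelled from 6 ug of total RNA and hybridised to Affymetrix arrays, per the labels' protocols. The deposited values are probe set intensities that the authors computed with MAS5, per the submitters' processing notes; no version is named in the sources used here. On every array the mean after trimming 2% at each end was 500.0. Of 45101 probe sets, 34945 were annotated to 1 gene, 932 to several and 9160 to none, and 64 were controls.

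Intensities were taken as log2(signal + 16), and folds from the fits are on that scale, which understates the change of dim genes. Probe sets above the array median on at least 4 of 16 arrays were kept (22315), and each gene was represented by its probe set with the highest mean, which left 13575 genes. limma 3.58.1 in R 4.3.3 (lmFit, eBayes with trend) was fitted to all arrays with arm and day as terms and 9 residual degrees of freedom. Tests were two-sided, with Benjamini-Hochberg adjustment over all genes tested and calls at 0.05. A further fit had the array set, parted at a median of 216.35, as a term, with 8 residual degrees of freedom. Errors are standard errors unless named otherwise, and the number of arrays limits the precision. Summaries used Python 3.11.15 with pandas 2.3.3 and numpy 2.4.6.

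On simulated data for the canertinib comparison (13575 genes), 70% of genes changed by 1 on the log2 scale and 93% of those changed by 2 were recovered, with 2 false calls. The simulated arrays had independent noise and no shift by array set or day. The count of false calls therefore does not cover differences that go with the array set. The text names every member, up to 3 called genes with the smallest p from each of 5 lists of other genes, and a few further PPARα targets. The members, lists and tests were chosen with earlier results of these data known. Alternatives were other pseudocounts, scalings, filters and probe set rules, no blocks, no trend, the array set as a term, and leaving out each array.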

Additional observations from a re-analysis of the deposited data

Results flagged for a closer look

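Within each arm the 4 days were checked for 1 array far from the other 3, and 13 of 132 groups of 4 had such an array. For independent values the rule marks about 1 in 20. The groups share arrays, and no share over all genes is given here. An excess in the members can therefore not be read from this count. The groups are time courses and not replicates, so a day that differs is marked in the same way as a stray array. In MET_KO_canertinib the day 14 array was the low one for Acaa1b (257.3), Aldh3a2 (754.5), Mgll (1382.4), Slc25a20 (2054.9) and Hadh (3184.0), and the day 7 array for Cpt1a (6918.4). In MET_FLOX_canertinib the day 14 array was the low one for Hsd17b4 (5221.8) and Acaa2 (6606.7). In MET_KO the day 2 array was the low one for Crat (1673.0) and the high one for Eci2 (6522.2). In MET_FLOX the day 14 array was the low one for Cpt2 (3742.9), Acadl (4531.2) and Decr1 (4541.4). Of the 13 arrays so marked, all but those of Cpt1a, Crat and Eci2 were of day 14.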

How the results depend on the processing

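Counts of called members changed with the scaling and with single arrays. Between canertinib arms and arms without canertinib, the 11 calls became 22 with centred arrays, 4 with quantile normalization and 1 with a term for the array set, and 8 to 14 when 1 array was left out. For MET_KO_canertinib against MET_FLOX the 4 calls became 18 with centred arrays, 0 with quantile normalization, 1 with the array set, 0 with no day or arm block and 2 with no trend, and 0 to 6 with 1 array left out. For MET_FLOX_canertinib against MET_FLOX the 1 call became 2 with a pseudocount of 64 or the stricter filter, 8 with centred arrays, 3 with the mean over probe sets and 0 with quantile normalization or no block, and 0 to 3 with 1 array left out. For MET_KO_canertinib against MET_KO the 6 calls became 21 with centred arrays, 1 with quantile normalization, 1 with the array set and 0 with no block, and 0 to 6 with 1 array left out. For day 14 against day 0 the 1 call became 6 with centred arrays, 3 with the array set, and 0 with quantile normalization, no block or no trend, and 0 to 1 with 1 array left out. For the canertinib difference at day 14 the 1 call became 2 with quantile normalization, and 0 to 7 with 1 array left out. The comparisons of genotype, the interaction, day 2 and day 7 had 0 called members in every alternative run. The Crot difference between canertinib arms and the others turned to 0.0208 with the mean over probe sets. The other scalings of the day 14 counts were chosen after seeing the data. Replicate numbers here stand for days, so the fits above with and without the day block are the paired and unpaired ones. With 1 array for each arm and day, single-array differences have no error. The cause of these changes was not tested.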
